A study of Mus musculus with 20 samples.

Results

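The genes described here encode the enzymes that attach glutathione, glucuronic acid or sulfate to other molecules. They were taken from Agilent mouse arrays hybridised with liver and white adipose tissue (WAT) RNA of mice on a high-fat diet. A gene was included when its name on the array began with Gst or Mgst (glutathione transferases), Ugt1, Ugt2 or Ugt3 (UDP-glycosyltransferases), or Sult (sulfotransferases). The rule found 47 genes read by 64 probes, of 27962 gene names and 41174 probes on the array, and each gene was represented by its brightest probe. There were 20 Gst, 3 Mgst, 3 Ugt1, 8 Ugt2, 2 Ugt3 and 11 Sult genes.

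All animals were male C57BL/6 mice, 7 months old, kept for 21 weeks on the high-fat diet (HFD), which contained 35% fat. The wild-type group, WT(HFD), was compared with mice lacking the hyaluronan receptor CD44 in every tissue, CD44KO(HFD), a line backcrossed to C57BL/6J. Each genotype was represented by 5 liver arrays and 5 WAT arrays, which gave 4 groups. No chow-fed animals were among these arrays, so every value belongs to the high-fat diet. The labels number the samples but do not name the mouse, so the p-values measure the spread between the arrays of a group.

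These enzymes carry out the conjugation step of detoxification. Glutathione transferases couple glutathione to reactive electrophiles, including products of lipid peroxidation. UDP-glucuronosyltransferases pass glucuronic acid from UDP-glucuronic acid to bilirubin, steroids, bile acids and drugs, and sulfotransferases pass sulfate from the donor PAPS to hormones, phenols and bile acids. The liver is the main site of all of these reactions. The alpha, mu and microsomal glutathione transferases include known targets of the oxidant-responsive factor Nrf2, and many of the glucuronosyltransferases respond to the nuclear receptors CAR and PXR.

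Because members of a family resemble each other, the probe decides which transcript a value belongs to. The probes of the alpha-class genes Gsta1 and Gsta2 are shown because the array design lists both transcripts for each of them. They overlap by 28 bases with 1 mismatch, T8A counted from the first base of the overlap with the Gsta1 base first, given in capitals. The design gives no position for the Gsta1 probe, and the Gsta2 probe lies at chr9:78408171-78408230 on the minus strand of the mm7 build.
Gsta1: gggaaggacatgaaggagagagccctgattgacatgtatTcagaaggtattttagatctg
Gsta2: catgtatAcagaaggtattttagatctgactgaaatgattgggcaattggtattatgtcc
The values of these genes are therefore uncertain as to which of the pair they measure. The same holds for Ugt2b38, whose probe lists Ugt2b37 and Ugt2b5 as well, for Ugt2b37, which lists Ugt2b36, and for Gstp1, which lists Gstp2.

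The Ugt1 locus on chromosome 1 holds a row of alternative first exons, each with its own promoter, joined to a common set of downstream exons. The probes of Ugt1a9 and Ugt1a1 each list 1 transcript and lie at chr1:87975078-87975137 and chr1:88115927-88115986, both on the plus strand of mm7. They are shown because the values below depend on which part of the locus is read.
Ugt1a9: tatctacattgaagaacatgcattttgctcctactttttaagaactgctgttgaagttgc
Ugt1a1: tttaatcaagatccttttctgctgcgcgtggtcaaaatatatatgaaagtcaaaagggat
The brightest probe named Ugt1a6b lies downstream of both, at chr1:88122519-88122578, and lists Ugt1a6b, Ugt1a1, Ugt1a5 and Ugt1a10, so it reads several transcripts of the locus at once.

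Levels are given as log2 of the array's processed signal minus the 75th percentile of that array, called the relative level, so 1 unit is a 2-fold difference. A gene was tested in a tissue where 3 or more of the 5 arrays of either genotype marked its probe as well above background. The tests were limma's moderated tests over all probes that met this criterion, adjusted by the Benjamini-Hochberg method, with a threshold of 0.05. In liver 44 of the 47 genes were tested and in WAT 40. Sult2a2, Sult2b1 and Sult3a1 were well above background on at most 1 array of any liver group and at most 2 of any WAT group. Ugt1a1, Ugt1a9, Sult1b1 and Sult1c2 were tested in liver but missed the criterion in WAT.

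Between 57.4% and 61.9% of probes were well above background on the liver arrays and between 63.2% and 69.5% on 9 of the WAT arrays. WT WAT replicate 1 stood apart, with 89.5% and a median signal of 897 against 117 to 224 on the other WAT arrays. The probe of Cd44 that was brightest in both tissues had a relative level of at least 0.11 in WT liver and at most -3.24 in CD44KO liver, and at least 3.55 in WT WAT and at most -0.35 in CD44KO WAT. Summed markers matched the labelled tissues. The 5 hepatocyte markers read summed to 10.4 to 11.0 in liver, and the 6 adipocyte markers to 8.58 to 9.86 in WAT.

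In liver, 14 of the 44 tested transferase genes passed the threshold, 6 lower and 8 higher in CD44KO(HFD) mice. The largest falls were those of Sult5a1, Ugt1a9 and Gsta2, by 1.86, 1.83 and 1.43 on the log2 scale, and the largest rise was that of Gstt3, by 0.93. Over all 24689 probes tested, 13.6% passed, 5.75% lower and 7.85% higher. At an unadjusted p under 0.05 there were 22 members, 10 lower and 12 higher, against 32.2% of all probes, 11.8% lower and 20.4% higher. The members' median log2 difference was 0.09 against 0.08 for all probes. The genotypes did not overlap for 7 of the 44 genes, and for 11.7% of all probes.

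**Figure D1:**
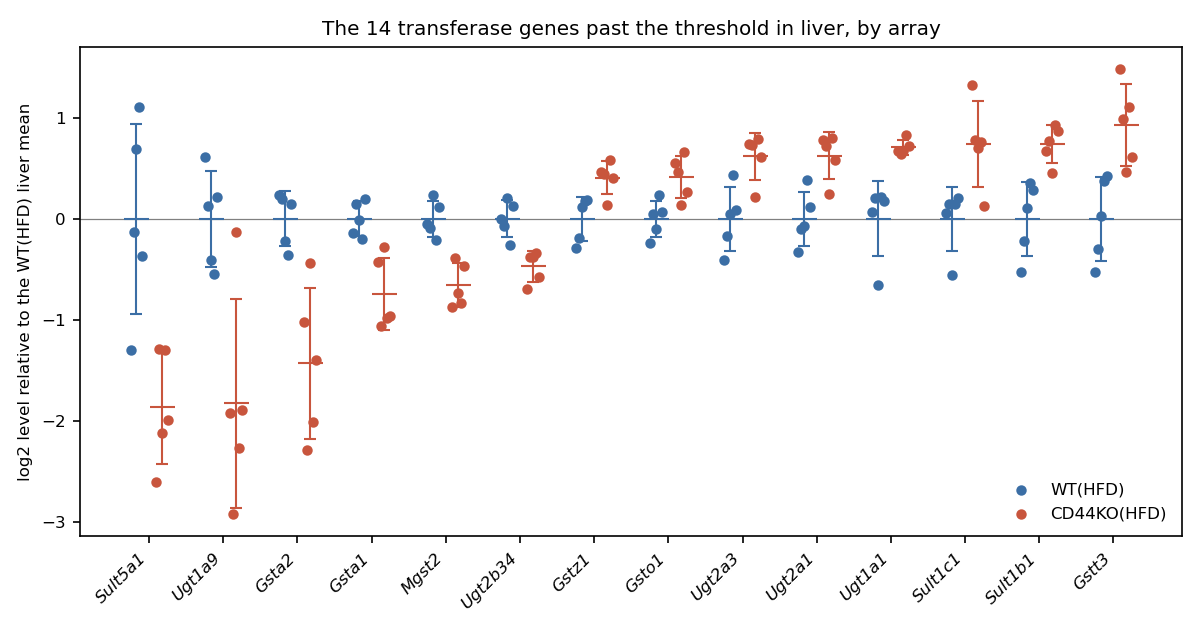
Relative level in liver of the 14 transferase genes past the threshold, each array shown as its log2 difference from the mean of the WT(HFD) livers (points; bars are the mean ± SD of 5 arrays). The 6 genes on the left were lower and the 8 on the right higher in CD44KO(HFD) livers; Mgst2 alone changed sign with the other background correction.

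Of the 20 Gst genes, 2 fell, 3 rose and 15 did not pass in liver. The falls were those of the alpha-class pair. Gsta2 read 4.17, 4.13, 3.71, 3.57 and 4.08 in the 5 WT(HFD) livers and 2.91, 1.64, 3.49, 1.93 and 2.54 in the CD44KO(HFD) livers. The groups did not overlap, and CD44KO replicate 3 was close to the lowest WT liver. The difference was -1.43 ± 0.32 (SE), a 2.70-fold fall, with an adjusted p of 0.0219. Gsta1 read 5.68, 5.96, 5.80, 5.62 and 6.01 in WT(HFD) and 5.38, 4.76, 5.53, 4.84 and 4.85 in CD44KO(HFD) livers, again without overlap and with CD44KO replicate 3 the highest of its group. Its difference was -0.74 ± 0.17, with an adjusted p of 0.0220. How much of either signal came from the other gene, given the overlap of the probes shown above, was not tested. The alpha-class genes whose probes list 1 transcript did not pass: Gsta3 differed by 0.15 ± 0.11 and Gsta4, which conjugates the lipid peroxidation product 4-hydroxynonenal, by 0.04 ± 0.14.

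The Gst genes that rose in CD44KO(HFD) livers were Gstt3, Gsto1 and Gstz1. Gstt3, a theta-class enzyme, read 4.42, 4.65, 4.97, 5.32 and 5.38 in WT(HFD) and 6.43, 5.93, 5.41, 6.06 and 5.56 in CD44KO(HFD) livers. The lowest CD44KO value, again that of replicate 3, lay just above the highest WT value. The difference was 0.93 ± 0.24 with an adjusted p of 0.0311. The other theta genes of the same stretch of chromosome 10 did not pass, with 0.40 ± 0.19 for Gstt2 and -0.02 ± 0.12 for Gstt1. Gsto1, an omega-class enzyme with thiol transferase activity, rose by 0.41 ± 0.12 (adjusted p = 0.0494). Gstz1, which is also the maleylacetoacetate isomerase of tyrosine breakdown, rose by 0.41 ± 0.12 (adjusted p = 0.0499). For both of these genes the genotypes overlapped and the adjusted p lay at the threshold.

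None of the 7 mu-class genes, Gstm1 to Gstm7, passed in liver. Gstm2 came nearest, with 5.29, 5.30, 5.72, 5.94 and 5.99 in WT(HFD) and 4.93, 4.30, 5.44, 5.22 and 4.81 in CD44KO(HFD) livers. The groups overlapped through CD44KO replicate 3, and the difference of -0.71 ± 0.22 had an adjusted p of 0.0611. Gstm1, Gstm3, Gstm4 and Gstm5 differed by -0.19 to -0.27, and Gstm6 and Gstm7 by 0.13 and 0.22. Gstp1, the pi-class gene, differed by -0.04 ± 0.08.

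Of the microsomal transferases, Mgst2 passed and Mgst1 and Mgst3 did not. Mgst2, a membrane enzyme that can also make leukotriene C4, was dim in liver. It read -3.67, -3.71, -3.39, -3.83 and -3.51 in WT(HFD) and -4.49, -4.01, -4.36, -4.45 and -4.09 in CD44KO(HFD) livers, where 3 of the 5 arrays were well above background. The groups did not overlap and the difference was -0.66 ± 0.12 (adjusted p = 0.0149), but with normexp background correction of the mean signal it was 0.12 (adjusted p = 0.795). Mgst3 differed by -0.55 ± 0.18 (adjusted p = 0.0670) and its second probe by -0.58 ± 0.19 (adjusted p = 0.0648). Mgst1, an abundant microsomal enzyme, differed by -0.05 ± 0.10.

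The Ugt1 probes gave opposite results along the locus in liver. Ugt1a9, whose enzyme handles phenols, read 0.50, 0.02, -0.52, -0.66 and 0.11 in WT(HFD) livers and -2.04, -3.03, -0.24, -2.38 and -2.01 in CD44KO(HFD) livers. All CD44KO arrays but replicate 3 lay below every WT array. The difference was -1.83 ± 0.45 (adjusted p = 0.0294), a 3.55-fold fall. Ugt1a1, the bilirubin glucuronosyltransferase, read 2.37, 2.50, 1.64, 2.51 and 2.48 in WT(HFD) livers and 2.97, 2.95, 2.97, 3.13 and 3.02 in CD44KO(HFD) livers. The groups did not overlap, although WT replicate 3 lay well below the other WT livers, and the rise was 0.71 ± 0.16 (adjusted p = 0.0229). The downstream probe that lists several transcripts of the locus did not pass, at 0.12 ± 0.07, and the second Ugt1a6b probe differed by 0.05 ± 0.10.

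Of the 8 Ugt2 genes, which lie side by side on chromosome 5 and mostly glucuronidate steroids and bile acids, 2 rose, 1 fell and 5 did not pass in liver. Ugt2a1 read 2.41, 2.64, 2.66, 3.12 and 2.86 in WT(HFD) and 3.52, 3.46, 2.98, 3.54 and 3.32 in CD44KO(HFD) livers, overlapping only through CD44KO replicate 3. It rose by 0.63 ± 0.15 (adjusted p = 0.0264), and a second probe of the gene rose by 0.66 ± 0.15 (adjusted p = 0.0244). Ugt2a3 ranged from 4.68 to 5.52 in WT(HFD) and from 5.30 to 5.87 in CD44KO(HFD) livers and rose by 0.62 ± 0.16 (adjusted p = 0.0355). Ugt2b34, at the other end of the cluster, fell by 0.47 ± 0.11 (adjusted p = 0.0245), from 2.66, 2.59, 2.87, 2.40 and 2.79 to 1.97, 2.29, 2.29, 2.33 and 2.09, without overlap. The adjoining Ugt2b1 differed by 0.46 ± 0.15 and did not pass (adjusted p = 0.0717). Ugt2b5, Ugt2b37 and Ugt2b38, whose probes partly list each other's transcripts, differed by 0.14, 0.05 and 0.27, and Ugt2b35 by -0.24.

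Neither Ugt3 gene passed in liver. These enzymes use other sugars in place of glucuronic acid. Ugt3a1 differed by 0.01 ± 0.14 and Ugt3a2 by -0.05 ± 0.13, although a second, dimmer probe named Ugt3a2 differed by 0.52 ± 0.17 (adjusted p = 0.0677).

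Of the 8 Sult genes tested in liver, 1 fell, 2 rose and 5 did not pass. Sult5a1, whose substrates are little known, varied most among the WT(HFD) livers, at -1.05, 0.11, 0.93, 1.35 and -0.12, against -2.37, -1.05, -1.88, -1.05 and -1.75 in CD44KO(HFD) livers. WT replicate 1 lay among the CD44KO values. The difference was -1.86 ± 0.44 (adjusted p = 0.0257), a 3.63-fold fall, and the exact permutation test over arrays gave a two-sided p of 0.0159. Sult1b1, which sulfates thyroid hormones and phenols, read 1.84, 2.14, 2.47, 2.72 and 2.65 in WT(HFD) and 3.04, 3.14, 2.82, 3.30 and 3.23 in CD44KO(HFD) livers, without overlap. It rose by 0.74 ± 0.17 (adjusted p = 0.0247), and its second probe by 0.69 ± 0.19 (adjusted p = 0.0440). Sult1c1 read 0.85, 0.94, 0.23, 0.94 and 0.99 against 2.11, 1.57, 1.49, 1.55 and 0.92, and rose by 0.74 ± 0.22 (adjusted p = 0.0481), with CD44KO replicate 5 inside the WT range. Sult1a1, the main phenol sulfotransferase, differed by 0.40 ± 0.15, Sult1d1 by 0.33 ± 0.19, Sult4a1 by 0.32 ± 0.13, Sult1e1, the estrogen sulfotransferase, by 0.12 ± 0.26, and Sult1c2 by -0.11 ± 0.18, none of which passed.

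The genotypes shared no values for 6 called genes whose brightest probe was well above background on every liver array. These were Gsta1, Gsta2, Gstt3, Ugt1a1, Ugt2b34 and Sult1b1. For any gene without overlap the exact permutation test gives 0.00794, the smallest two-sided p that 5 against 5 arrays allow. That p therefore restates the lack of overlap and adds nothing to it. The liver arrays lay on 3 slides, slides 1 and 2 with 2 arrays of each genotype and slide 3 with 1 of each. The sign of all 14 differences was the same within each slide. The genes were called on these same arrays, so the shared sign is not independent support. With slide as a block, 13 members passed, Gstz1 and Sult1c1 being lost (adjusted p = 0.0507 and 0.0582) and Mgst3 gained. Over all probes 4275 of 24689 passed with this block.

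The number of calls depended on single arrays. Without CD44KO replicate 3 the members called in liver were 17, with Gstm2, Gstm3, Mgst3 and Ugt2b1 gained and Sult1c1 lost. Without WT replicates 1, 2, 3 and 5 they were 5, 2, 7 and 8, and without CD44KO replicates 1, 2, 4 and 5 they were 4, 6, 3 and 5. Without WT replicate 4 they were 15, with Ugt2b1 and Ugt2b35 gained and Sult1c1 lost. The calls over all probes moved as well. They were 1572 of 24409, 924 of 24364, 2275 of 24581, 3820 of 24533 and 1821 of 24349 without WT replicates 1 to 5, against 3358 of 24689 in the main setting. The change in count was therefore not particular to the members. Only Mgst2 passed in each of these 10 fits, and Ugt1a1 passed in 9. No called gene changed sign in them. With normexp background correction 6 members passed, all of them lower in CD44KO(HFD): Gsta1, Gsta2, Ugt1a9, Ugt2b34, Gstm2 and Mgst3. With quantile normalization the split was 7 lower and 6 higher, and over all probes 425 were lower and 216 higher with normexp against 1420 and 1938 in the main setting.

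Markers of other liver cells also differed between the genotypes, in both directions. The 5 cholangiocyte markers summed to 4.24 to 6.29 in WT(HFD) and 3.17 to 4.28 in CD44KO(HFD) livers, but most of this sum was Spp1, the osteopontin gene, which other cells express as well and which fell by 1.54 (adjusted p = 0.0302). Sox9 fell by 0.70 (adjusted p = 0.0497), whereas Krt19, Krt7 and Epcam differed by -0.48, -0.19 and -0.44 and did not pass. The 5 stellate cell and fibroblast markers summed to 3.94 to 5.03 and 2.64 to 4.10. Of these Col1a1, Col3a1 and Pdgfrb fell by 2.38, 1.60 and 0.83, and Des and Lrat did not pass. The 4 Kupffer cell markers summed to 4.81 to 6.35 in WT(HFD) and 6.14 to 7.55 in CD44KO(HFD) livers, and Marco rose by 2.95 (adjusted p = 0.0410). Clec4f, Cd5l and Vsig4 differed by 0.75, 0.33 and 1.14 and did not pass. The 6 adipocyte markers summed to 4.16 to 5.00 and 3.1 to 4.66, but most of this sum was Cfd and Fabp4. These differed by -1.28 and -0.57 and did not pass (adjusted p = 0.195 and 0.148). Adipoq, Plin1 and Lep were well above background on at most 1 array of either liver group. The hepatocyte sums were 10.4 to 10.9 in WT(HFD) and 10.8 to 11.0 in CD44KO(HFD) livers. CD44KO replicate 3 had the highest cholangiocyte and fibroblast sums of its group. In the first list only Spp1 was highest there, with Krt19 and Krt7 highest in replicate 5, Epcam in replicate 4 and Sox9 in replicate 2. In the second Col1a1, Col3a1, Des and Pdgfrb were highest in replicate 3 and Lrat in replicate 2. Gsta2, Gsta1, Ugt1a9, Gstm2 and Mgst3 were also highest in replicate 3. Mgst2 and Sult5a1, likewise lower in CD44KO(HFD), were highest in replicate 2 and Ugt2b34 in replicate 4. Each of the 10 cholangiocyte and fibroblast markers was well above background in both liver groups, on 3 or more arrays of each. The part of cell composition in the transferase differences was not tested, and in bulk tissue fewer cells of a type and less RNA per cell cannot be told apart.

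The genes that serve the same reactions were read from 9 lists of 51 genes, of which 49 were tested in liver. Of these 12 fell and 3 rose, 30.6% together against 13.6% of all probes. Among the glutathione supply genes Gclc, the catalytic subunit of the rate-limiting step of glutathione synthesis, fell by 0.53 ± 0.13 (adjusted p = 0.0273) and Gss, which completes it, by 0.44 ± 0.10 (adjusted p = 0.0233). With Ggt5, 3 of the 6 tested genes of that list fell. Gclm, the modifier subunit that partners Gclc, differed by 0.18 ± 0.08 (adjusted p = 0.149), Oplah by 0.07 and Gsr by -0.08, and these did not pass. Of the 5 glutathione peroxidases 3 fell, namely Gpx3 by 0.89, Gpx4, which reduces lipid hydroperoxides, by 0.70 and Gpx7 by 0.87. Of the 6 genes listed as Nrf2 and its targets 3 fell, Srxn1 by 0.97 (adjusted p = 0.0200), Nqo1 by 0.81 (adjusted p = 0.0219) and Txnrd1 by 0.23 (adjusted p = 0.0421), while Nfe2l2, which encodes Nrf2, differed by -0.29 ± 0.10 and did not pass.

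Of the genes that supply UDP-glucuronic acid, Ugdh, the dehydrogenase that makes it, fell by 0.72 ± 0.14 (adjusted p = 0.0161) and 2 others did not pass. None of the 5 genes of the sulfate donor supply and none of the 4 deconjugating enzymes passed. Among 8 nuclear receptors and liver factors Nr1h4, the bile acid receptor FXR, rose by 0.46 ± 0.10 (adjusted p = 0.0219) and Nr1i3, which encodes CAR, by 0.59 ± 0.17 (adjusted p = 0.0477). Of the 5 efflux pumps Abcc4 fell by 0.92 ± 0.25. Among the other conjugating or epoxide-handling enzymes Ephx2, an epoxide hydrolase, rose by 0.43 ± 0.10 (adjusted p = 0.0240).

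**Figure D2:**
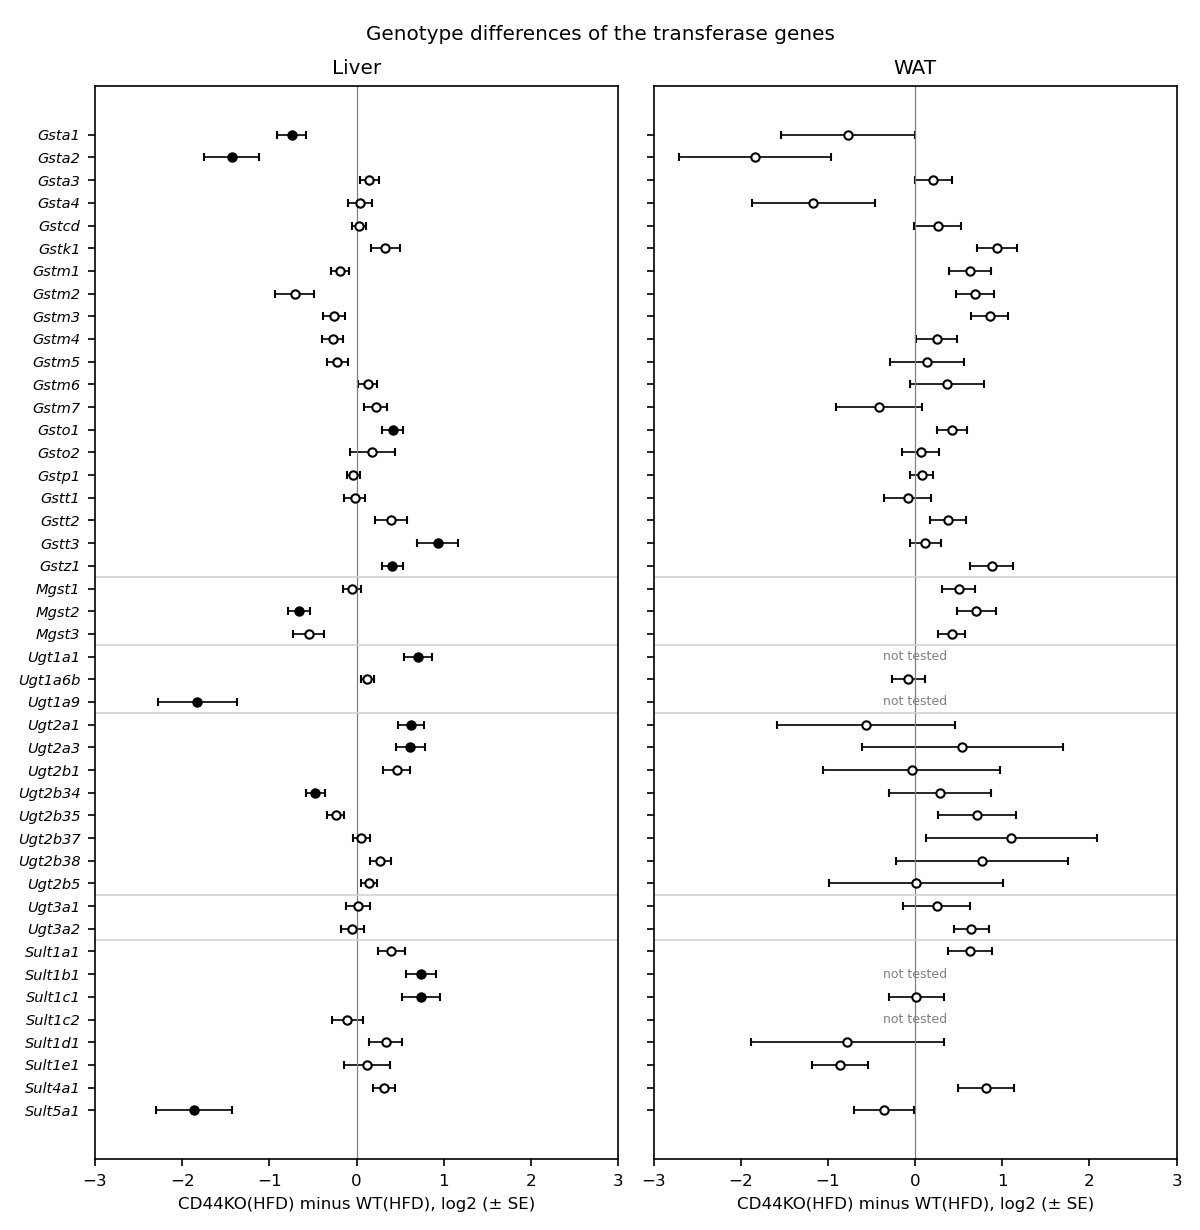
Log2 difference between CD44KO(HFD) and WT(HFD) mice, with its standard error, for the 44 transferase genes tested in liver (left) and the same genes in WAT (right); filled points passed the threshold of 0.05 on the adjusted p, and horizontal lines part the families Gst, Mgst, Ugt1, Ugt2, Ugt3 and Sult. Of the 44 genes 14 passed in liver and none of 40 in WAT, and the error was over 1 in WAT for Ugt2a1, Ugt2a3, Ugt2b1, Ugt2b5 and Sult1d1.

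In WAT no transferase gene passed the threshold. The comparison called 0.0398% of 27654 probes, 0.0289% lower and 0.0108% higher. At an unadjusted p under 0.05 there were 13 of the 40 tested members, 12 higher and 1 lower in CD44KO(HFD), against 14.9% of all probes, 8.27% higher and 6.6% lower. The genotypes did not overlap for 6 members and for 6.18% of all probes. With array weights 7 members passed, namely Gstk1, Gstm3, Gstz1, Mgst1, Mgst2 and Sult4a1 higher and Sult1e1 lower. With all 20 arrays in 1 fit 5 passed, Gstk1, Gstm3, Gstz1, Mgst2 and Ugt3a2, all higher. The 0.0398% of all probes belongs to the main setting and cannot be set against these counts, which are not read as particular to the members. The median log2 difference of the 40 members was 0.25 against -0.06 for all probes. Centring each array on its median moved the median of all probes by 0.48, and quantile normalization moved it by 0.17, so the WAT differences are read relative to these shifts.

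The lowest p among the Gst genes in WAT was that of Gstk1, the kappa-class enzyme of mitochondria and peroxisomes. It read 1.97, 2.66, 2.51, 2.71 and 2.62 in WT(HFD) and 3.6, 3.52, 3.98, 2.97 and 3.08 in CD44KO(HFD) WAT, and the groups did not overlap. The difference of 0.93 ± 0.23 had an adjusted p of 0.169. Gstm3 differed by 0.86 ± 0.21 (adjusted p = 0.170), Gstz1 by 0.88 ± 0.24 and Gstm2 by 0.69 ± 0.22, each without overlap. In all 4 of these genes WT replicate 1, the array that stood apart, was the lowest of its group. Without it 37 of 27264 probes but still no transferase passed, and Gstk1 differed by 0.80 (adjusted p = 0.142).

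All 3 Mgst genes had an unadjusted p under 0.05 in WAT. Mgst2, bright in fat, read 2.29, 2.70, 2.69, 2.66 and 3.12 in WT(HFD) and 3.84, 3.75, 2.95, 3.11 and 3.29 in CD44KO(HFD) WAT. The groups overlapped only through WT replicate 5, and the difference of 0.70 ± 0.22 had an adjusted p of 0.222. Mgst1 differed by 0.50 ± 0.19 and Mgst3 by 0.42 ± 0.15.

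Sult1e1 was the only member with an unadjusted p under 0.05 that was lower in CD44KO(HFD) WAT. It inactivates estrogens and read 2.16, 2.89, 3.32, 2.29 and 3.05 in WT(HFD) and 1.24, 2.62, 2.07, 2.12 and 1.37 in CD44KO(HFD) WAT. The difference of -0.86 ± 0.32 had an adjusted p of 0.266. Sult5a1 read -0.98, -1.94, -1.46, -1.80 and -1.68 against -2.09, -0.68, -2.64, -2.05 and -2.16, a difference of -0.35 ± 0.34 (adjusted p = 0.619). Ugt3a2 ranged from -2.36 to -1.59 in WT(HFD) and from -1.66 to -0.996 in CD44KO(HFD) WAT, a difference of 0.65 ± 0.20 (adjusted p = 0.216). The Ugt1a6b probe differed by -0.08 ± 0.19 and Ugt2b35 by 0.71 ± 0.45, and neither kept its sign under every scaling or background correction.

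The Ugt2 genes varied widely among the WAT arrays of 1 genotype. Ugt2b37 read -3.20, -2.0, -6.95, -2.11 and -5.45 in WT(HFD) and -3.57, -4.16, -1.23, -2.60 and -2.63 in CD44KO(HFD) WAT. The lowest values belonged to WT replicates 3 and 5 and the highest to CD44KO replicate 3. The summed level of the 8 Ugt2 genes ran from -3.86 to 0.90 in WT(HFD) and from -1.93 to 0.57 in CD44KO(HFD) WAT. The 5 hepatocyte markers, including albumin, each well above background on 3 or more arrays of both WAT groups, summed to 3.13, 4.77, 0.77, 4.06 and 1.23 on the WT arrays and to 2.93, 2.70, 5.27, 4.33 and 4.07 on the CD44KO arrays. The lowest sums again belonged to WT replicates 3 and 5 and the highest to CD44KO replicate 3. The part of hepatocyte RNA in the Ugt2 signal of WAT was not tested. Other markers in WAT differed as well. The 4 endothelial markers summed to 2.61 to 3.64 in WT(HFD) and 3.77 to 4.59 in CD44KO(HFD) WAT, and the 5 mesothelium markers to 1.32 to 3.43 and 0.12 to 1.78, although no single marker of either list passed the threshold.

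WT WAT replicate 1 was an exception to this order, with the highest Ugt2 sum of the WAT arrays, 0.90, and a hepatocyte sum of 3.13. The 6 epididymis markers summed to 0.62 on that array and to between -5.61 and -2.48 on the other WAT arrays. The rise was not particular to that list: the 4 exocrine pancreas markers read summed to -0.36 there and to between -4.39 and -3.1 on the other WAT arrays. WT WAT replicate 1 also had the highest WAT values of many dim members, among them Gsta1, Gsta2, Gsta4, Ugt1a1, Ugt1a9, Ugt2a1, Sult1b1, Sult2a2 and Sult2b1. Gsta1 read 1.09 there against -3.70 to -2.22 on the other WAT arrays.

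**Figure D3:**
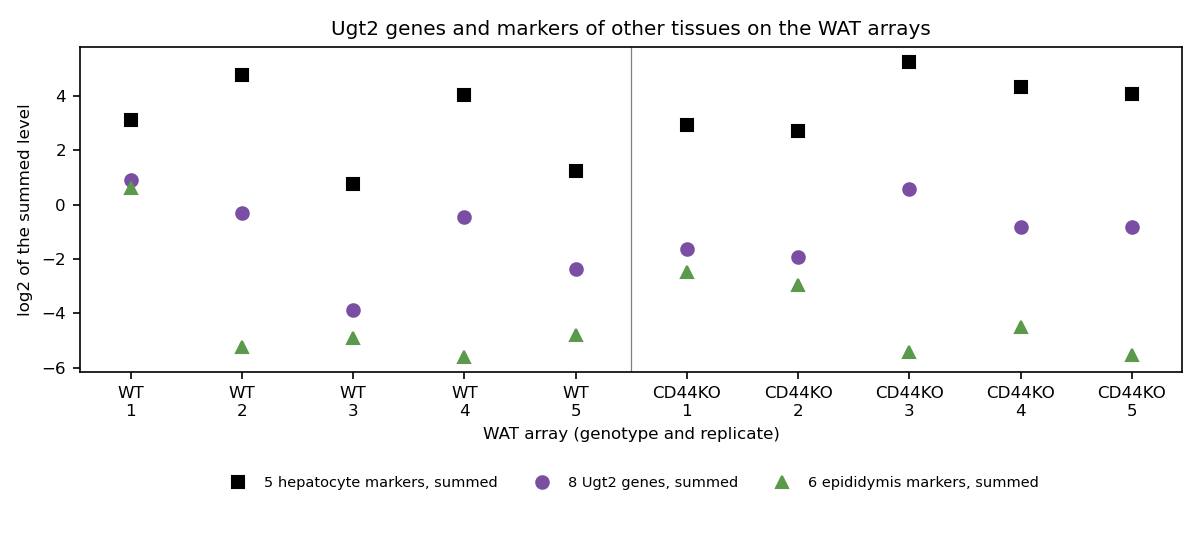
Log2 of the summed relative level of the 8 Ugt2 genes (circles), 5 hepatocyte markers (squares) and 6 epididymis markers (triangles) on each of the 10 WAT arrays, WT(HFD) on the left and CD44KO(HFD) on the right. WT replicates 3 and 5 had the lowest and CD44KO replicate 3 the highest hepatocyte sum, and WT replicate 1 alone had an epididymis sum above 0.

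The genotype difference itself was compared between the tissues in 1 fit of the 20 arrays. It differed for 3 of 44 members, Mgst2, Gstm3 and Gstm2, and for 1.15% of 28989 probes (15.8% at an unadjusted p under 0.05). In each of these genes the difference was negative in liver and positive in WAT, except that the liver difference of Mgst2 turned positive with normexp correction. The liver difference minus the WAT difference was -1.36 ± 0.26 for Mgst2 (adjusted p = 0.0201), -1.11 ± 0.25 for Gstm3 (adjusted p = 0.0388) and -1.40 ± 0.32 for Gstm2 (adjusted p = 0.0445). Gstm3, for example, read 8.75, 8.68, 8.76, 8.69 and 8.96 in WT(HFD) and 8.61, 8.19, 8.89, 8.44 and 8.43 in CD44KO(HFD) livers, but 4.28, 4.87, 5.39, 4.89 and 4.95 in WT(HFD) and 6.06, 5.86, 5.71, 5.49 and 5.54 in CD44KO(HFD) WAT. The liver values overlapped and the WAT values did not. Mgst3, named here after its values were seen, came close to the threshold, at -0.97 ± 0.24 (adjusted p = 0.0518). No other member passed. Gstt3 had 0.81 ± 0.30 (adjusted p = 0.193), and Ugt1a9, not well above background on any WAT array, had -1.05 ± 0.77 (adjusted p = 0.523). Ugt1a9, Ugt1a1, Sult1b1 and Sult1c2 missed the criterion in WAT and entered this comparison through liver alone.

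These differences between tissues rested on few arrays and on the scaling. With each of 11 single arrays left out, only Mgst2 still passed. These were WT liver replicates 1, 2, 3 and 5, CD44KO liver replicates 1, 2, 4 and 5, WT WAT replicate 2 and CD44KO WAT replicates 1 and 2. With median centring, or with the replicate number as a block, no member passed, the adjusted p of Mgst2 then being 0.241 and 0.126. With normexp correction Gstm2 and Gstm3 passed and Mgst2 did not (adjusted p = 0.258), while array weights gave 8 members. The tissues were hybridised on different slides, so tissue and slide cannot be told apart, whereas each genotype difference was taken within a tissue. In WAT genotype and slide were partly confounded, since 1 of the 3 slides held CD44KO replicates 1 and 4 and no WT array. With slide as a block no member passed in WAT, and Gstk1 differed by 1.14 (adjusted p = 0.194).

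**Figure D4:**
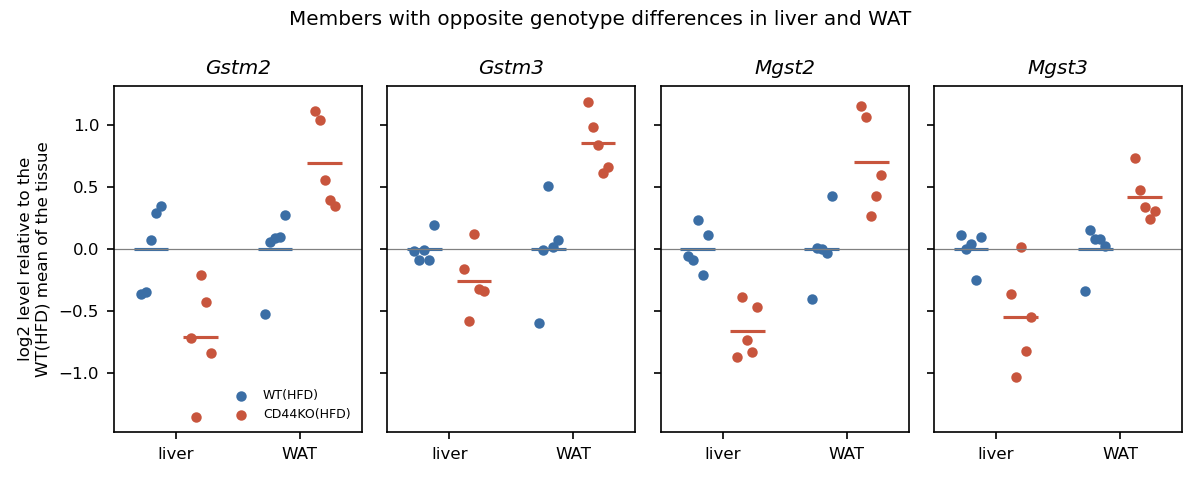
Relative level of Gstm2, Gstm3, Mgst2 and Mgst3 in liver and WAT as the log2 difference from the WT(HFD) mean of the tissue (points are arrays, lines are group means of 5). In the setting shown the CD44KO(HFD) means lie below 0 in liver and above 0 in WAT for all 4 genes; the liver difference of Mgst2 turned positive with the other background correction.

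In WT(HFD) mice all 44 members tested differed between liver and WAT, 42 higher in liver and 2 lower, against 36.2% and 34.3% of all probes. Of the 42, Ugt1a9, Sult1b1, Ugt1a1, Sult1c2 and Ugt2b35 were well above background on at most 2 WT WAT arrays, so they entered through the arrays where they were high and had to differ, and their differences depend on signals near background. The 8 Ugt2 genes differed by 7.43 to 10.5, with Ugt2b37 and Ugt2b38 above 10, and Ugt2a1 and Ugt2b1 were well above background on 3 of the 5 WT WAT arrays. Ugt3a1 and Ugt3a2 differed by 7.86 ± 0.30 and 7.76 ± 0.17. Ugt1a9 was not well above background on any WT WAT array and was at least 57-fold higher in liver, taking on each WAT array the lowest signal well above background, or its own where higher, as its level there. The 20 Gst genes ran from 0.79 for Gstm5, whose groups overlapped, to 9.31 for Gsta2, with Gstp1 at 3.52 and Gstm1 at 3.03.

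Mgst2 and Sult1e1 were the members with more signal in fat. Mgst2 was higher in WT(HFD) WAT by 6.31 ± 0.18 on the log2 scale, with means of 2.69 ± 0.29 (SD, n = 5) in WAT and -3.62 ± 0.18 in liver. Sult1e1 was higher in WAT by 4.65 ± 0.31, with means of 2.74 ± 0.50 and -1.91 ± 0.30. Mgst3 differed least between the tissues, by 0.43 ± 0.17, with slightly more in liver (adjusted p = 0.0295).

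**Figure D5:**
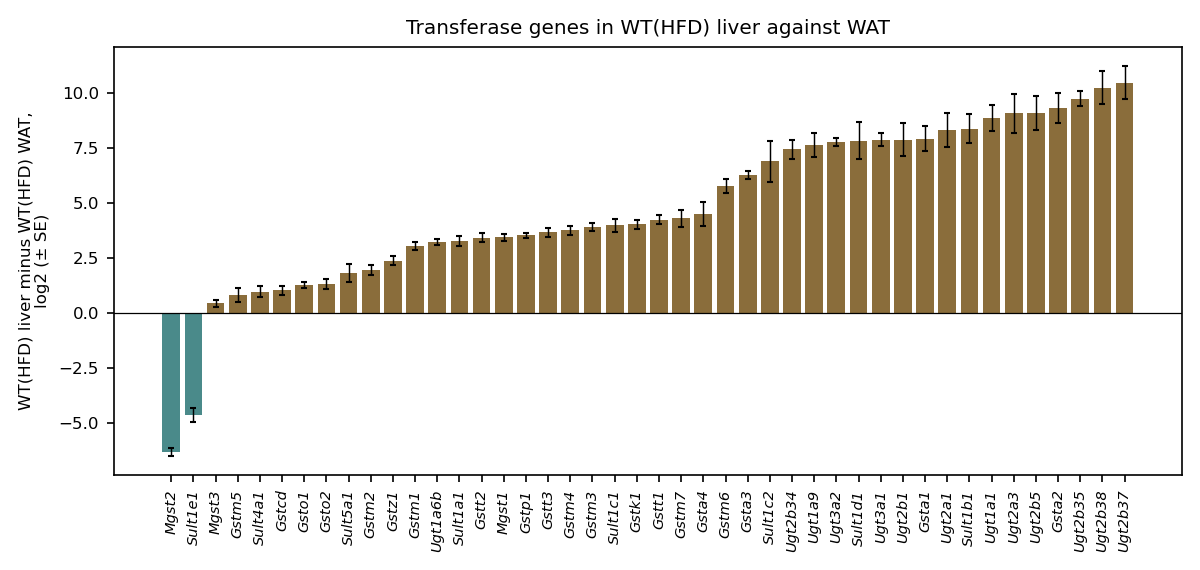
Log2 difference between WT(HFD) liver and WT(HFD) WAT for the 44 members tested, with its standard error, in order of size. Of the 44 genes 42 lie above 0 (higher in liver), and Mgst2 and Sult1e1 lie below.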

How the data were processed

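Agilent 1-colour mouse arrays of 20 samples, with 45018 spots each, were read from the deposited Feature Extraction files (version 9.5.3.1 in the file headers). The authors' software had subtracted a spatial background trend and corrected a multiplicative trend to give the processed signal intensity, which is not normalized between arrays; the values were used as deposited. Here log2 of this intensity was taken minus each array's 75th percentile over its non-control spots. Spots flagged as outliers were then left out, and spots of a probe were averaged. The fit by limma 3.58.1 (R 4.3.3) used the 10 arrays of a tissue, or all 20 arrays for contrasts between tissues. The flags well above background were also taken as deposited. The number of arrays limits the precision.

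Members were the genes named by the rule, 1 probe each. The members and lists were chosen with earlier results of these data known. The rule for named genes took those past the threshold in a tissue or in the difference between tissues, the lowest p of each family with none, and Sult5a1, which the study lists. Other members, and the values of each array beyond the 8 largest changes of a tissue, were added after their values were seen. Probe positions are those of the array design (mm7) and were not converted. Some listed genes and the promoter motifs are not reported here. The fits were tested on simulated data. Quantile, median and normexp scaling (offset 50), other filters, blocks, array weights, other probes and leaving out each array were tried as alternatives. The deposited series table held the same 45018 processed intensities for each array as its feature file within rounding, so as an alternative source it gave the same calls.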

Additional observations from a re-analysis of the deposited data

Results flagged for a closer look

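Each tested member was examined in each group of 5 arrays for 1 value far from the other 4, by Dixon's criterion at 0.71 of the group's range. Of 168 such groups 12 were singled out, where chance gives about 5%. WT WAT replicate 1 accounted for 7 of them. Its relative level was 1.09 for Gsta1 (nearest other array -2.32), -1.84 for Gsto2 (-2.65) and -2.09 for Sult4a1 (-3.03), each the highest of the group. It was 1.97 for Gstk1 (2.51), 3.17 for Gstm2 (3.75), 1.65 for Mgst3 (2.0) and 1.89 for Sult1a1 (2.66), each the lowest. In liver, WT replicate 3 was low for Ugt1a1 at 1.64 (2.37) and for Sult1c1 at 0.23 (0.85), and WT replicate 5 was high for Gstm4 at 2.90 (2.65). In WAT, WT replicate 5 was high for Gstm5 at 2.90 (1.0) and CD44KO replicate 2 for Gstt2 at 1.47 (0.66). Ugt1a1 and Sult1c1 passed the threshold in liver, and without WT replicate 3 Ugt1a1 still passed and Sult1c1 did not.

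The difference between genotypes itself differed between liver and WAT for 3 members by the test of that difference, with liver minus WAT values of -1.36 for Mgst2, -1.11 for Gstm3 and -1.40 for Gstm2.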

How the results depend on the processing

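The members called in liver were 14 (6 lower, 8 higher). They were 6 (6 lower, 0 higher) with normexp background correction and 1 (1 and 0) with no filter. They were 2 (1 and 1) with all 20 arrays in 1 fit and 5 (3 and 2) with the replicate number as a block, all 5 among the 14. Over all probes 3358 of 24689 passed in the main setting. With normexp 641 of 24689 passed, with no filter 1027 of 41174, in the fit of 20 arrays 638 of 28989 and with the replicate block 1329 of 24689. The lower counts were therefore not particular to the members. The labels do not say whether same-numbered arrays share anything beyond the number. The deviations of same-numbered arrays from their group means correlated by -0.04 to 0.42 in liver and -0.21 to 0.09 in WAT. Whether they share a factor was not tested. The block gave 0 members in WAT. Leaving out 1 array gave 2 to 17 members, 1 to 9 lower and 0 to 8 higher. In the fit that gave 2, without WT replicate 2, 924 of 24364 probes passed. In WAT the count of 0 became 5 (5 higher) with all 20 arrays in 1 fit. With array weights it became 7 (1 lower, 6 higher). These WAT counts have no share of all probes beside them and are not read as particular to the members. The WAT count stayed 0 when any 1 array was left out. The members whose genotype difference differed between tissues were 3 (all lower in liver), 0 with median centring and with the replicate block, 1 with no filter, 8 (6 lower, 2 higher in liver) with array weights, and 1 to 4 when 1 array was left out. The 44 members differing between WT liver and WT WAT numbered 42 to 44 when 1 array was left out.

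Signs turned for Mgst2 in liver with normexp (0.12) and for values that passed no test: Ugt3a2 in liver without WT replicate 4 (-0.139 to 0.00132 over the arrays left out), and in WAT Ugt1a6b with normexp (0.0104), with median centring (0.40) and without WT replicate 2 or CD44KO replicate 2 (-0.184 to 0.0315), Ugt2b35 with normexp (-0.0240) and Sult5a1 with median centring (0.13). The cause was not tested. Mgst2 in liver was well above background on 3 of 5 CD44KO arrays.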
